A study of Homo sapiens with 8 samples.

Results

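The enzymes that oxidise, hydrolyse and conjugate drugs and reactive aldehydes were followed in OVISE, a human cell line established from clear cell carcinoma of the ovary. They comprise cytochromes P450 of families 1 to 4, 20, 24, 26, 27 and 39, the epoxide hydrolases EPHX1 and EPHX2, aldo-keto reductases of families 1 and 7, all aldehyde dehydrogenases, cytosolic and microsomal glutathione transferases, UDP-glucuronosyltransferases of families 1 and 2, and the sulfotransferases. Members were chosen by gene symbol, without antisense genes, which gave 143 of the 27757 entries of the expression table. Of these, 47 reached 1 FPKM (fragments per kilobase of transcript, scaled to the mapped fragments) in at least 2 libraries and were tested, among 12112 tested entries in all. Of the other 96 members, 36 were listed at 0 in every library.

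The series asks how the tyrosine kinase SYK shapes transcription that depends on the EGF receptor. SYK-KO EGF cells carried the SYK knockout and were given 50 ng/ml of epidermal growth factor (EGF) over 24 h, SYK-KO cells carried the knockout without EGF, SYK-WT EGF cells had wild-type SYK and the same EGF, and SYK-WT cells had wild-type SYK without EGF. Each of the 4 groups had 2 libraries. The knockout was made in OVISE cells with a Cas9 nickase and a pair of guides to exon 2 of SYK, puromycin selection and single-cell cloning, and was checked by immunoblot, per the labels. The labels do not say how many clones were sequenced, whether the SYK-WT cells had been cloned, or whether paired libraries are separate cultures. The p-values therefore reflect library-to-library spread alone, possibly technical, and an effect of SYK and one of cloning cannot be told apart. In such bulk samples, fewer cells that express a gene and less RNA per cell cannot be told apart either.

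Drug metabolism is usually described in phases. Phase I enzymes, mainly cytochromes P450, add or expose a reactive group; epoxide hydrolases open the epoxides that this can create, and aldehyde dehydrogenases and aldo-keto reductases oxidise or reduce carbonyl groups. Phase II enzymes attach glutathione, glucuronic acid or sulfate, which makes the product easier to export. The liver is the best known site, but epithelial tissues and carcinomas carry their own subset, and some members act mainly on the body's own retinoids, steroids, bile acids or amino acids. Many of the genes are known targets of the aryl hydrocarbon receptor (AHR), which binds xenobiotic response elements, or of NRF2, which binds antioxidant response elements.

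The promoters of EPHX1, ALDH1A2, CYP1A1 and GSTP1 are shown because these genes carry the largest knockout differences, the deepest fall with EGF and the highest level among the tested members. Each window runs around a RefSeq transcription start, mostly upstream of it, (GRCh38.p14), on the strand of the gene. Capitals mark matches, on either strand, to the antioxidant core TGACNNNGC or the xenobiotic core GCGTG, and in these windows no match to one overlaps a match to the other. EPHX1 is shown at the start chr1:225825104-225825403 (plus strand), with 1 antioxidant and 2 xenobiotic matches. Its other 2 listed starts had neither. Which of the listed starts of a gene these cells use was not tested. ALDH1A2 (chr15:58065662-58065961, minus strand) had 2 xenobiotic matches and a second listed start with neither, CYP1A1 (chr15:74725479-74725778, minus strand) had 1 xenobiotic match, and GSTP1 (chr11:67583562-67583861, plus strand) had 1 antioxidant match.
EPHX1: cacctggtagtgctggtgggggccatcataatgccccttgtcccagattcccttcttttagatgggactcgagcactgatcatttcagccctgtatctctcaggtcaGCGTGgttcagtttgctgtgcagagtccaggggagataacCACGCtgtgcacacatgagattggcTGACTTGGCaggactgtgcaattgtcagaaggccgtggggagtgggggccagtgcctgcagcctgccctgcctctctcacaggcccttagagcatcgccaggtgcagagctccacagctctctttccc
ALDH1A2: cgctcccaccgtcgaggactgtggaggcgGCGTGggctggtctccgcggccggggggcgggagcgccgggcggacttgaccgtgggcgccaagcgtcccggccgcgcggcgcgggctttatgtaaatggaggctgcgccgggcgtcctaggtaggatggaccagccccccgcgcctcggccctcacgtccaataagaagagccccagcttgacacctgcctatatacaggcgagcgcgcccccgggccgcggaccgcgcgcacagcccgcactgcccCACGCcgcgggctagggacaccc
CYP1A1: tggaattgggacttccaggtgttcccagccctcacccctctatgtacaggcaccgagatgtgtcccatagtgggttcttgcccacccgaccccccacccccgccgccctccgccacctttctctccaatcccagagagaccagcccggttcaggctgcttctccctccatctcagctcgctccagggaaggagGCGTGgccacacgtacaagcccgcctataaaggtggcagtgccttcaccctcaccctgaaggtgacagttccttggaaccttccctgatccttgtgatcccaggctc
GSTP1: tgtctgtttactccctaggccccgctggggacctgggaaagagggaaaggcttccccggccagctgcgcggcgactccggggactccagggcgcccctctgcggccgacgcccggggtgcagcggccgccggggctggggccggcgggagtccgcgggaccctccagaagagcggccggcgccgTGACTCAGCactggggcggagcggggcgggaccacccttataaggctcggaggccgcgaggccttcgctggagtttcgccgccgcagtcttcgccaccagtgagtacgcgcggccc
Over all 35116 RefSeq windows, 13.3% held the antioxidant core and 36.5% the xenobiotic core. Among the 64 windows found for 48 symbols of tested members, 20.3% held the antioxidant core and 39.1% the xenobiotic core. These are shares of windows and not of members. Some windows of a gene overlap, and several UGT1A genes of a shared entry add their own. Some tested members, such as EPHX2 and CYP2C18, had no window. A match describes the letters and is not a shown binding site.

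The most abundant members were GSTP1, the pi-class glutathione transferase, at 506 to 1228 FPKM, and ALDH1A3, a retinaldehyde dehydrogenase, at 259.8 to 306 FPKM. AKR1A1, the aldehyde reductase, followed at 107 to 129.8 FPKM, GSTO1, the omega-class transferase, at 78.7 to 140 FPKM, and EPHX1 in SYK-KO cells. The P450 families were low: of 44 members of families 1 to 4, 9 were tested, and CYP4F11, a fatty acid hydroxylase, had the highest mean. Families with all members tested were the epoxide hydrolases (2 of 2) and the microsomal glutathione transferases (3 of 3), against 14 of 19 aldehyde dehydrogenases, 7 of 21 cytosolic glutathione transferases, 4 of 16 aldo-keto reductases, 4 of 14 sulfotransferases, 2 of 15 glucuronosyltransferases and 2 of 9 members of P450 families 20 to 39. Just inside the limit, by the library with the second highest value, were CYP2U1 (1.21 FPKM), CYP2C18 (1.26 FPKM) and ALDH3A2 (1.33 FPKM), and just outside were GSTM2 (0.963 FPKM), CYP4F3 (0.863 FPKM) and CYP2E1 (0.729 FPKM). CYP2C18 and CYP2U1 reached 1 FPKM in SYK-KO libraries alone, so their inclusion depended on the group where they were high.

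**Figure D1:**
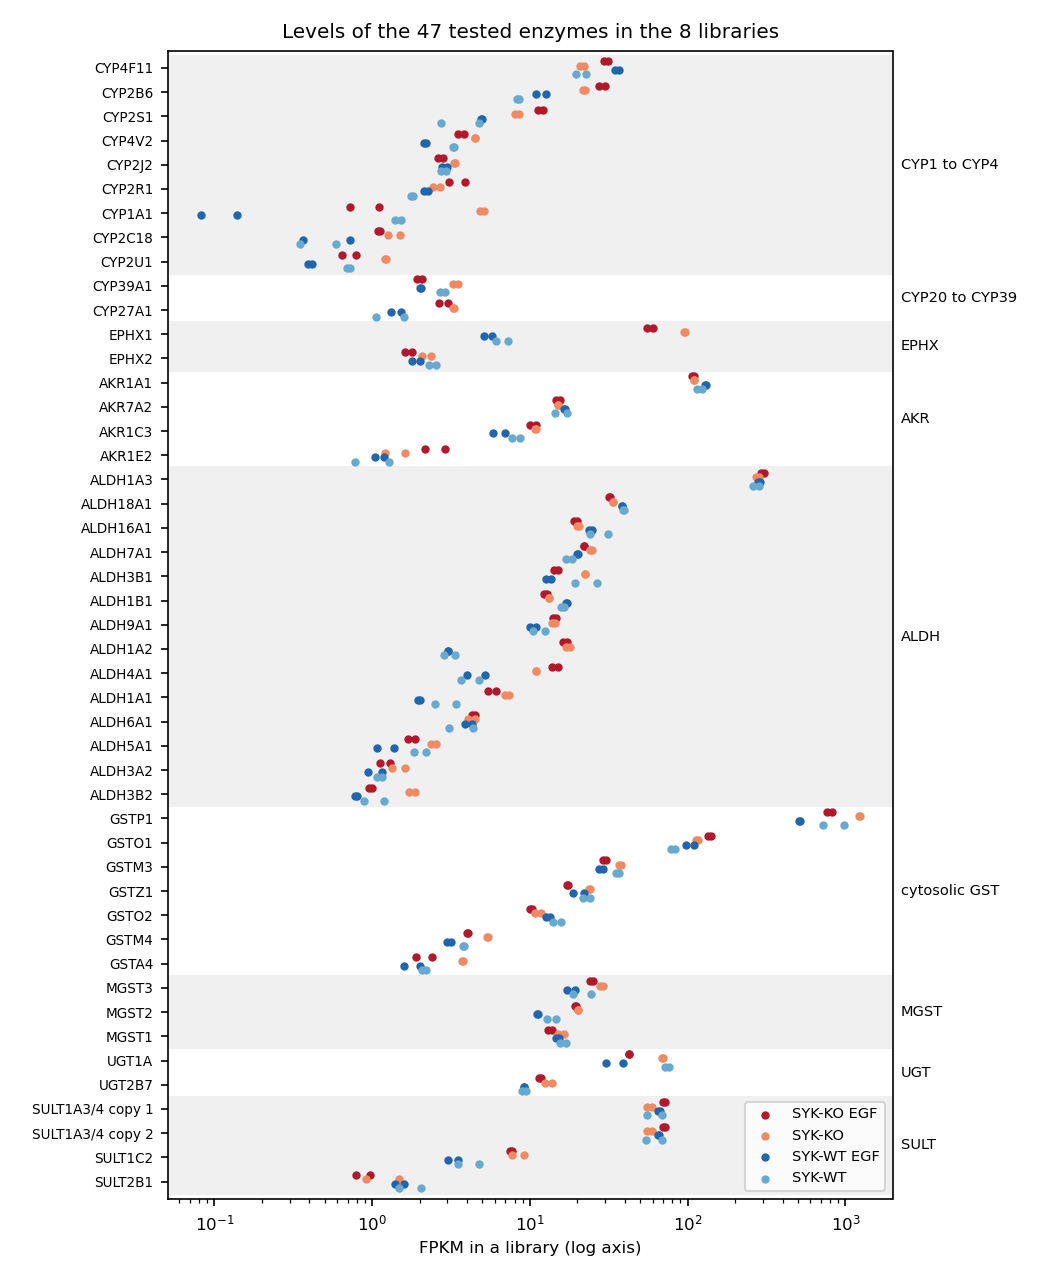
FPKM (log axis) of the 47 tested members in the 8 libraries, 1 point per library, grouped by enzyme family and ordered by mean within a family. GSTP1 and ALDH1A3 lie highest, the points of EPHX1 and ALDH1A2 part mainly by genotype, and those of CYP1A1 by both genotype and EGF.

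All 8 epithelial and clear cell markers reached 1 FPKM, against 0 of 4 haematopoietic, 0 of 4 fibroblast and 0 of 3 endothelial markers. Of 6 hepatocyte markers 1 did, SERPINA1, at up to 15.7 FPKM, while ALB, APOA1 and TTR lay at or near 0. NAPSA, a clear cell marker, was at 0.787 to 1.26 FPKM in the 4 SYK-KO libraries, against 4.16 to 5.37 FPKM in the 4 SYK-WT libraries; its part in the results was not tested. SYK had 3.11 and 3.43 FPKM in SYK-KO cells, against 4.91 and 5.30 FPKM in SYK-WT cells, and 2.80 and 3.16 FPKM in SYK-KO EGF cells, against 3.88 and 3.62 FPKM in SYK-WT EGF cells. An allele cut in exon 2 can still be transcribed, and these levels therefore test the labels only weakly. From the step between low values, 1 fragment of a 2 kb transcript was worth 0.0186 to 0.0220 FPKM over the libraries, an estimate of their depth. The SYK-WT pair differed most (median absolute log2 difference 0.150 per entry, against 0.0669 to 0.0828 in the other groups).

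Many of these enzymes stood higher in SYK-KO than in SYK-WT cells, with and without EGF. In untreated cells 24 of the 47 tested members were higher in SYK-KO than in SYK-WT, where 20.3% of all tested entries were higher, and 4 were lower, where 20.2% were lower (limma on log2(FPKM + 1), Benjamini-Hochberg adjusted p under 0.05). With EGF 24 were higher against a background of 21.1%, and 4 were lower against 22.5%. The median log2 difference of the members was 0.29 in untreated cells, where that of all tested entries was -0.0081, and 0.29 with EGF, where that of all tested entries was -0.021. CYP2C18 and CYP2U1 were admitted by SYK-KO libraries alone, so the limit favoured their rises. Without them 22 of 45 were higher and 4 lower in either comparison, with medians of 0.26 untreated and 0.17 with EGF. In the authors' deposited table, 18 members had a q-value under 0.05 in untreated cells (21.5% of all tested entries) and 20 with EGF (24.0%), and each of them also passed here.

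Of the 24 rises in untreated cells, 17 held in all 15 alternative analyses, and with EGF 14 of 24 did. The rises that held in both comparisons were those of EPHX1, ALDH1A1, ALDH1A2, ALDH4A1, CYP1A1, CYP2B6, CYP2S1, CYP4V2, CYP27A1, GSTO1, MGST2 and SULT1C2. Leaving out a library of a compared group leaves 1 library in it, so a call can end while the difference hardly moves. In untreated cells MGST3, ALDH9A1, AKR1C3, GSTP1, CYP2R1, ALDH3B2 and CYP2U1 missed the threshold without SYK-KO replicate 1, and all of these but ALDH3B2 also without SYK-KO replicate 2 (adjusted p from 0.0501 to 0.188 over the libraries that mattered). MGST3 and ALDH9A1 also missed it without SYK-WT replicate 1 or either SYK-KO EGF library, and ALDH9A1 without either SYK-WT EGF library. With EGF the 10 rises of GSTM4, MGST3, ALDH9A1, AKR1E2, CYP2C18, CYP2R1, UGT1A, UGT2B7, CYP2U1 and ALDH5A1 each missed it without 1 or more of the 4 EGF libraries (adjusted p from 0.0510 to 0.260, the highest for UGT1A), and those of UGT1A, CYP2U1 and ALDH5A1 also without either SYK-KO library. Of the falls, that of ALDH1B1 with EGF held throughout. The untreated falls of ALDH16A1, ALDH18A1, ALDH1B1 and GSTO2 ended without SYK-KO replicate 1, and those other than GSTO2 also without replicate 2 (0.0762 to 0.1001). With EGF those of AKR1A1, GSTO2 and ALDH18A1 ended without SYK-WT EGF replicate 1, and that of AKR1A1 also without any other EGF library and that of GSTO2 without SYK-KO EGF replicate 2 (0.0517 to 0.0786).

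**Figure D2:**
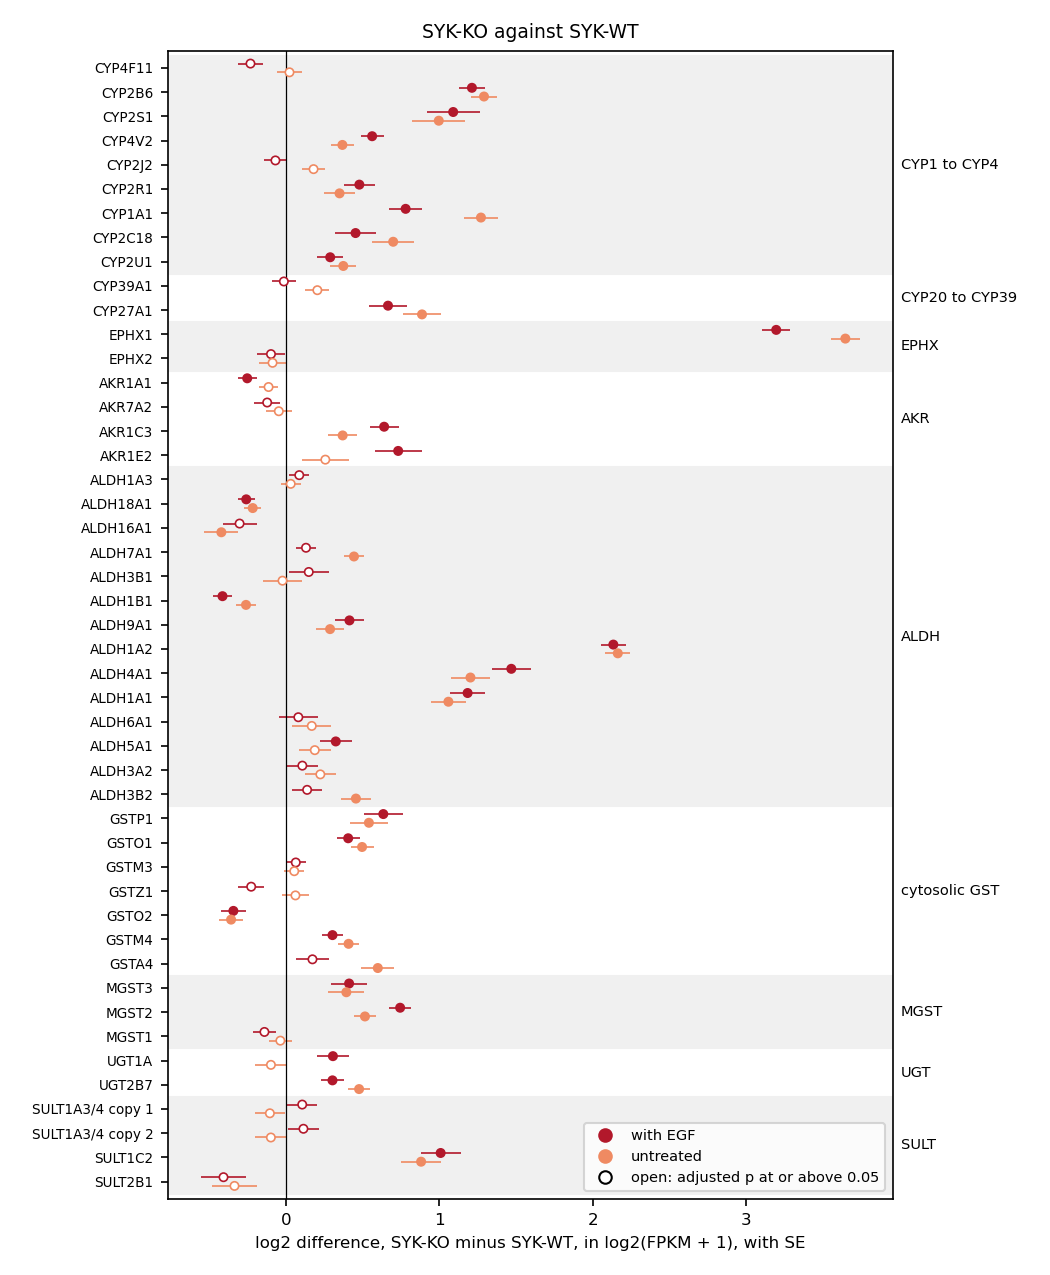
Log2 difference of SYK-KO minus SYK-WT for each tested member, on the scale of log2(FPKM + 1), with EGF (red) and untreated (orange); bars are SE, and filled points passed the adjusted threshold of 0.05. EPHX1 and ALDH1A2 lie furthest to the right, at 3.65 and 2.16 in untreated cells, and the other rises that passed lie between 0.29 and 1.47.

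Fewer members passed with EGF, and most of those were lower. Among SYK-KO cells 2 members rose with EGF (6.67% of all tested entries rose) and 12 fell (5.13% fell), with a median of -0.16 for the members and 0.0014 for all tested entries. In SYK-WT cells 3 rose (14.7% of all tested entries) and 13 fell (12.1%), with medians of -0.12 for the members and 0.0077 for all. CYP2B6 and CYP4F11 rose in both genotypes, and ALDH3B1, CYP1A1, CYP2U1, CYP39A1, GSTM3, GSTM4, GSTP1 and UGT1A fell in both. CYP2U1 was admitted by SYK-KO libraries alone, so the limit favoured its fall with EGF in SYK-KO cells. Without CYP2C18 and CYP2U1, 2 of 45 rose and 11 fell in SYK-KO cells, and 3 rose and 12 fell in SYK-WT cells. The medians were then -0.15 and -0.12. In the table deposited by the authors, 8 members had a q-value under 0.05 for EGF in SYK-WT cells (15.2% of all tested entries), each of which also passed here.

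Tested directly, the EGF response of SYK-KO cells minus that of SYK-WT cells passed for 0 of 47 members by limma, where 0.00826% of all tested entries passed, and 7 members (14.9%) had an unadjusted p under 0.05, as did 1070 of all tested entries (8.83%). Without SYK-WT replicate 1, ALDH3B1 passed (difference 0.40, adjusted p = 0.0409), as did the 2 near-identical entries of SULT1A3 and SULT1A4 (0.36 and 0.37, adjusted p = 0.0473 and 0.0431). A member that passed in 1 genotype and not in the other is therefore not shown to respond differently.

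The falls of CYP1A1 and EPHX1 in SYK-KO cells held in all 15 alternatives. The other falls there, of ALDH3B1, ALDH3B2, CYP2U1, CYP39A1, GSTA4, GSTM3, GSTM4, GSTP1, GSTZ1 and UGT1A, and the rises of CYP2B6 and CYP4F11, ended when SYK-KO replicate 1 was left out. All of these but CYP39A1 also ended without SYK-KO replicate 2 and without SYK-KO EGF replicate 2, and all but CYP39A1 and GSTA4 without SYK-KO EGF replicate 1, while ALDH3B1 and CYP2U1 also ended without either SYK-WT EGF library (adjusted p from 0.0527 to 0.204 over all of these). In SYK-WT cells the rise of CYP4F11 and the falls of CYP1A1, UGT1A, GSTP1, ALDH3B1 and CYP4V2 held in all 15. There the rise of GSTO1 ended without SYK-WT EGF replicate 1 (0.103) and that of CYP2B6 without replicate 2 (0.0678). The falls of GSTM3, GSTM4, AKR1C3, CYP2U1, MGST2, CYP39A1 and ALDH1A1 ended without SYK-WT EGF replicate 1 and that of ALDH5A1 without replicate 2, with values from 0.0517 to 0.245; CYP2U1 lost its call without any one of the 8 libraries. GSTM4, MGST2, CYP39A1 and ALDH1A1 also ended without SYK-WT EGF replicate 2, and GSTM4, AKR1C3, MGST2 and ALDH1A1 without any one SYK-KO or SYK-KO EGF library. AKR1C3 and ALDH1A1 also ended without SYK-WT replicate 1, and MGST2 without SYK-WT replicate 2.

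**Figure D3:**
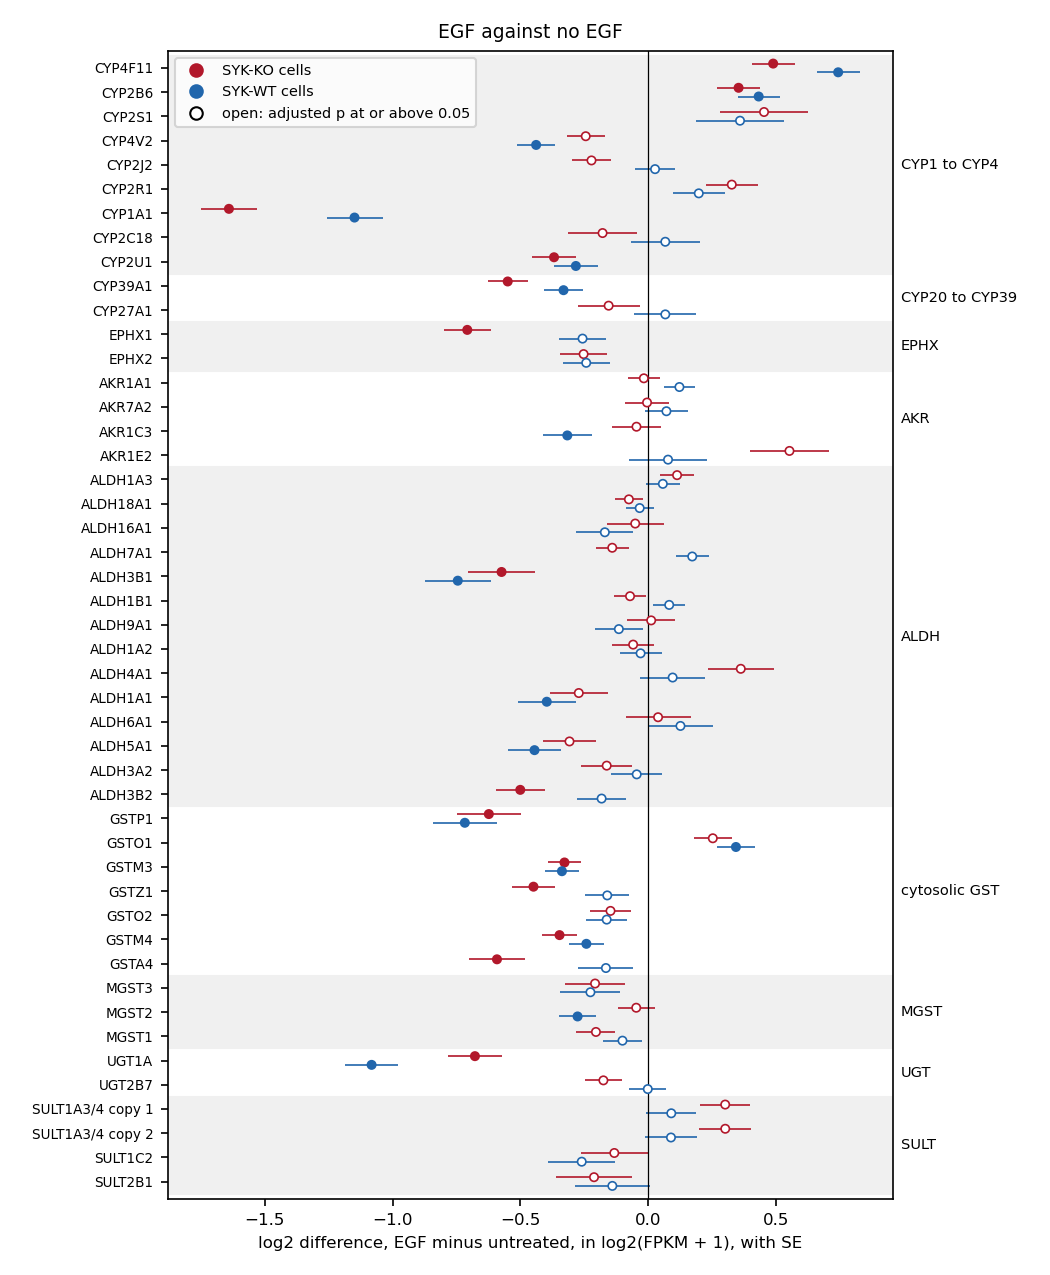
Log2 difference of EGF minus untreated for each tested member, on the scale of log2(FPKM + 1), in SYK-KO (red) and SYK-WT (blue) cells; bars are SE, and filled points passed the adjusted threshold of 0.05. CYP1A1 lies furthest to the left in both genotypes, at -1.64 and -1.15, and CYP4F11 furthest to the right among the filled points, at 0.49 and 0.74.

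EPHX1, the microsomal epoxide hydrolase that turns reactive epoxides into diols, differed most between the genotypes. It had 94.2 and 96.1 FPKM in SYK-KO cells, against 6.12 and 7.27 FPKM in SYK-WT cells, a 14.2-fold ratio of means. With EGF it had 55.2 and 60.7 FPKM in SYK-KO EGF cells, against 5.12 and 5.74 FPKM in SYK-WT EGF cells. Both SYK-KO groups lay far above both SYK-WT groups, and the EGF-treated SYK-KO libraries lay below the untreated ones. The log2 difference of SYK-KO minus SYK-WT was 3.65 ± 0.09 in untreated cells (SE; limma, adjusted p = 7.35e-07) and 3.20 ± 0.09 with EGF (adjusted p = 1.45e-06). EGF lowered EPHX1 in SYK-KO cells by a log2 difference of -0.71 (adjusted p = 0.00338), and the difference in SYK-WT cells was -0.26 (adjusted p = 0.0754); the responses differed by -0.45 ± 0.13 (adjusted p = 0.426). EPHX1 (chromosome 1, 225997776 to 226070420, hg19) has an entry of its own, but the deposited interval also spans TMEM63A, listed as a separate entry. TMEM63A lay the other way, with 7.96 and 8.40 FPKM in SYK-KO cells, against 11.7 and 13.0 FPKM in SYK-WT cells. The soluble epoxide hydrolase EPHX2, which acts on fatty acid epoxides, was at 1.62 to 2.56 FPKM over the 8 libraries and passed in no comparison.

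Among the cytochromes P450, CYP1A1, the classic AHR target that oxidises polycyclic hydrocarbons, moved with both genotype and EGF; it was singled out after its values were seen. It had 5.09 and 4.81 FPKM in SYK-KO cells, against 1.39 and 1.53 FPKM in SYK-WT cells. With EGF it had 1.11 and 0.726 FPKM in SYK-KO EGF cells, against 0.0822 and 0.139 FPKM in SYK-WT EGF cells. The 4 groups did not overlap, and EGF-treated SYK-KO cells lay below untreated SYK-WT cells. SYK-KO minus SYK-WT was 1.27 ± 0.11 in untreated cells (adjusted p = 1.57e-04) and 0.78 ± 0.11 with EGF (adjusted p = 0.0013). EGF minus untreated was -1.64 in SYK-KO cells (adjusted p = 2.66e-04) and -1.15 in SYK-WT cells (adjusted p = 5.08e-04). The log2(FPKM + 1) scale understates these changes at so low a level: with a pseudocount of 0.1 the EGF difference in SYK-WT cells was -2.90 and the SYK-KO minus SYK-WT difference with EGF was 2.26.

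The AHR itself was lower in untreated SYK-KO cells, with 6.53 and 6.76 FPKM, against 9.52 and 8.64 FPKM in SYK-WT cells (log2 difference -0.40 ± 0.07, adjusted p = 0.00464). With EGF it had 7.41 and 7.19 FPKM in SYK-KO EGF cells, against 8.42 and 7.91 FPKM in SYK-WT EGF cells, and did not pass (-0.14, adjusted p = 0.152). Its partner ARNT had 7.41 and 8.10 FPKM in SYK-KO cells, against 8.01 and 7.70 FPKM in SYK-WT cells, and did not pass. CYP1A2 and CYP1B1, the other members of the family, stayed under 1 FPKM in every library. CYP1A2 had 0.0273 and 0.0363 FPKM in SYK-KO EGF cells, against 0.248 and 0.232 FPKM in SYK-KO cells, and 0.0233 and 0.0127 FPKM in SYK-WT EGF cells, against 0.139 and 0.178 FPKM in SYK-WT cells. These values rest on few fragments, and the EGF-treated pair was the lower one in both genotypes.

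CYP2B6, which metabolises cyclophosphamide and efavirenz, was higher in SYK-KO cells and rose with EGF. It had 22.5 and 21.7 FPKM in SYK-KO cells, against 8.57 and 8.31 FPKM in SYK-WT cells, and 27.2 and 29.8 FPKM in SYK-KO EGF cells, against 10.9 and 12.6 FPKM in SYK-WT EGF cells. The groups did not overlap. SYK-KO minus SYK-WT was 1.29 ± 0.08 untreated (adjusted p = 4.21e-05) and 1.21 ± 0.08 with EGF (adjusted p = 6.00e-05), and EGF minus untreated was 0.35 in SYK-KO cells (adjusted p = 0.0319) and 0.43 in SYK-WT cells (adjusted p = 0.00844). The EGF calls of CYP2B6 ended when some single libraries were left out, while the differences kept their direction. In SYK-KO cells the difference was 0.38 without SYK-KO replicate 1 and 0.33 without replicate 2. In SYK-WT cells it was 0.34 without SYK-WT EGF replicate 2. CYP2B7P, its pseudogene, lay below the limit for testing, and the authors' counting could share reads between the pair.

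CYP4F11, which hydroxylates fatty acids and vitamin K, rose with EGF in both genotypes and passed in neither comparison of the genotypes. It had 31.1 and 29.5 FPKM in SYK-KO EGF cells, against 22.0 and 20.7 FPKM in SYK-KO cells, and 34.8 and 36.8 FPKM in SYK-WT EGF cells, against 22.6 and 19.5 FPKM in SYK-WT cells. Untreated groups overlapped and treated groups lay above them. EGF minus untreated was 0.49 ± 0.08 in SYK-KO cells (adjusted p = 0.0101) and 0.74 ± 0.08 in SYK-WT cells (adjusted p = 9.70e-04), and SYK-KO minus SYK-WT was 0.02 untreated (adjusted p = 0.839) and -0.23 with EGF (adjusted p = 0.0557).

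Other P450 enzymes were higher in SYK-KO cells at lower levels; these were named after their values were seen. CYP2S1, an enzyme of epithelia outside the liver, had 8.02 and 8.54 FPKM in SYK-KO cells, against 2.74 and 4.78 FPKM in SYK-WT cells (0.997 ± 0.17, adjusted p = 0.00344), and 12.1 and 11.3 FPKM in SYK-KO EGF cells, against 4.91 and 5.005 FPKM in SYK-WT EGF cells (1.09 ± 0.17, adjusted p = 0.00224). CYP27A1, the mitochondrial sterol 27-hydroxylase, had 3.27 and 3.28 FPKM in SYK-KO cells, against 1.60 and 1.06 FPKM in SYK-WT cells (0.89 ± 0.12, adjusted p = 0.00123). CYP2R1, a vitamin D 25-hydroxylase, and CYP4V2, a fatty acid hydroxylase, were higher by 0.35 and 0.37 in untreated cells. CYP39A1, an oxysterol hydroxylase, fell with EGF instead, to 1.93 and 2.06 FPKM in SYK-KO EGF cells, against 3.51 and 3.27 FPKM in SYK-KO cells, and to 2.04 and 2.01 FPKM in SYK-WT EGF cells, against 2.91 and 2.70 FPKM in SYK-WT cells. CYP2J2, an arachidonic acid epoxygenase, passed in no comparison.

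Of 14 tested aldehyde dehydrogenases, 6 were higher and 3 lower in untreated SYK-KO than in SYK-WT cells, where 20.3% of all tested entries were higher and 20.2% lower; the share of lower ones is near that background. ALDH1A2, which makes retinoic acid from retinaldehyde, had 16.9 and 17.9 FPKM in SYK-KO cells, against 3.37 and 2.86 FPKM in SYK-WT cells. With EGF it had 16.2 and 17.1 FPKM in SYK-KO EGF cells, against 3.02 and 3.03 FPKM in SYK-WT EGF cells. The genotypes lay far apart and EGF-treated and untreated libraries overlapped in each. SYK-KO minus SYK-WT was 2.16 ± 0.08 untreated (adjusted p = 4.73e-06) and 2.13 ± 0.08 with EGF (adjusted p = 4.07e-06).

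ALDH1A1, another retinaldehyde dehydrogenase and a common stem cell marker, had 6.94 and 7.42 FPKM in SYK-KO cells, against 3.40 and 2.50 FPKM in SYK-WT cells (1.06 ± 0.11, adjusted p = 4.32e-04). It had 5.46 and 6.09 FPKM in SYK-KO EGF cells, against 2.02 and 1.94 FPKM in SYK-WT EGF cells (1.18 ± 0.11, adjusted p = 2.63e-04). The third enzyme of that kind, ALDH1A3, was by far the most abundant and did not pass. It had 282 and 271 FPKM in SYK-KO cells, against 259.8 and 282 FPKM in SYK-WT cells (0.03 ± 0.07, adjusted p = 0.726). Its deposited interval also holds LRRK1 and an antisense entry, so its value is less certain.

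ALDH4A1, the mitochondrial enzyme of proline breakdown, had 11.0 FPKM in both SYK-KO libraries, against 3.68 and 4.78 FPKM in SYK-WT cells, and 13.7 and 15.1 FPKM in SYK-KO EGF cells, against 4.01 and 5.16 FPKM in SYK-WT EGF cells. The differences were 1.20 ± 0.13 untreated (adjusted p = 4.15e-04) and 1.47 ± 0.13 with EGF (adjusted p = 1.68e-04), at an interval that also holds 2 microRNA entries. ALDH18A1 acts in the opposite direction, in early steps of proline synthesis from glutamate. It was lower, with 33.7 and 33.8 FPKM in SYK-KO cells, against 39.6 and 39.1 FPKM in SYK-WT cells (-0.22 ± 0.06, adjusted p = 0.0168). The mitochondrial ALDH1B1, which oxidises acetaldehyde, was lower too, with 12.9 and 12.2 FPKM in SYK-KO EGF cells, against 16.9 and 17.1 FPKM in SYK-WT EGF cells (-0.41 ± 0.06, adjusted p = 0.00188). ALDH16A1, a member without known catalytic activity in humans, had a difference of -0.42 untreated (adjusted p = 0.0192), and of -0.23 without SYK-WT replicate 2. ALDH7A1, the lysine-degrading antiquitin, was higher by 0.44 ± 0.06 in untreated cells (adjusted p = 0.0015), and with EGF its difference was 0.13 (adjusted p = 0.131).

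ALDH3B1, which oxidises long-chain lipid aldehydes, followed EGF. It had 15.0 and 14.3 FPKM in SYK-KO EGF cells, against 22.4 and 22.2 FPKM in SYK-KO cells, and 12.7 and 13.5 FPKM in SYK-WT EGF cells, against 19.3 and 26.7 FPKM in SYK-WT cells. The untreated genotypes overlapped. EGF minus untreated was -0.57 ± 0.13 in SYK-KO cells (adjusted p = 0.0285) and -0.75 ± 0.13 in SYK-WT cells (adjusted p = 0.00589).

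Of the 4 tested aldo-keto reductases, 2 were higher and 1 lower in SYK-KO EGF than in SYK-WT EGF cells (21.1% and 22.5% of all tested entries). AKR1E2, an anhydrofructose reductase singled out after its values were seen, had 2.17 and 2.91 FPKM in SYK-KO EGF cells, against 1.20 and 1.04 FPKM in SYK-WT EGF cells (0.73 ± 0.15, adjusted p = 0.00721). With a pseudocount of 0.1 this difference was 1.10. Its EGF minus untreated difference in SYK-KO cells was 0.55 (adjusted p = 0.0572). AKR1C3, a steroid 17-ketoreductase, had 11.0 and 10.0 FPKM in SYK-KO EGF cells, against 5.82 and 6.96 FPKM in SYK-WT EGF cells (0.64 ± 0.09, adjusted p = 0.00163), and 10.9 and 10.8 FPKM in SYK-KO cells, against 8.62 and 7.75 FPKM in SYK-WT cells (0.37 ± 0.09, adjusted p = 0.0171). Near-identical AKR1C genes could share its reads: AKR1C1 and AKR1C2 lay below 1 FPKM in every library. AKR1A1 had 107 and 109.8 FPKM in SYK-KO EGF cells, against 129.8 and 129 FPKM in SYK-WT EGF cells (-0.25 ± 0.06, adjusted p = 0.0131). AKR7A2, an aldehyde reductase of the aflatoxin reductase family, passed in no comparison.

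Among the conjugating enzymes, the glutathione transferases were led by GSTP1, long studied in resistance to chemotherapy. It had 1228 and 1223 FPKM in SYK-KO cells, against 724 and 978 FPKM in SYK-WT cells, and 764 and 827 FPKM in SYK-KO EGF cells, against 506 and 517 FPKM in SYK-WT EGF cells. SYK-KO libraries were higher at either treatment, and EGF-treated libraries lower in either genotype, without overlap within a pair of groups. EGF minus untreated was -0.62 ± 0.13 in SYK-KO cells (adjusted p = 0.0184) and -0.72 ± 0.13 in SYK-WT cells (adjusted p = 0.00603). SYK-KO minus SYK-WT was 0.54 ± 0.13 untreated (adjusted p = 0.0116) and 0.64 ± 0.13 with EGF (adjusted p = 0.00561). The untreated difference was 0.32 without SYK-WT replicate 1, and its call ended without SYK-KO replicate 1 (0.0619) or 2 (0.0536).

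GSTO1, which reduces dehydroascorbate and methylated arsenic, was higher in SYK-KO cells at either treatment. It had 134 and 140 FPKM in SYK-KO EGF cells, against 109 and 96.9 FPKM in SYK-WT EGF cells, and 117 and 112 FPKM in SYK-KO cells, against 83.4 and 78.7 FPKM in SYK-WT cells. SYK-KO minus SYK-WT was 0.41 ± 0.07 with EGF (adjusted p = 0.0041) and 0.50 ± 0.07 untreated (adjusted p = 0.00183). EGF minus untreated was 0.25 in SYK-KO cells, which did not pass (adjusted p = 0.0699), and 0.34 in SYK-WT cells (adjusted p = 0.014); leaving out SYK-WT EGF replicate 1 ended that rise (0.103). Its neighbour in the omega class, GSTO2, was lower, with 10.8 and 11.8 FPKM in SYK-KO cells, against 13.9 and 15.7 FPKM in SYK-WT cells (-0.36 ± 0.08, adjusted p = 0.00976). GSTM3 and GSTM4, of the mu class, fell with EGF in both genotypes, with log2 differences for GSTM3 of -0.33 among SYK-KO libraries and -0.34 among SYK-WT libraries, and for GSTM4 of -0.35 among SYK-KO libraries and -0.24 among SYK-WT libraries. GSTZ1, the maleylacetoacetate isomerase of tyrosine breakdown, had 17.3 and 17.1 FPKM in SYK-KO EGF cells, against 24.0 and 23.7 FPKM in SYK-KO cells (-0.45 ± 0.09, adjusted p = 0.0147).

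Of the 3 microsomal glutathione transferases, MGST2, which can make leukotriene C4, had 20.1 FPKM in both SYK-KO libraries, against 12.9 and 14.7 FPKM in SYK-WT cells (0.52 ± 0.07, adjusted p = 0.0014). With EGF it had 19.3 and 19.5 FPKM in SYK-KO EGF cells, against 11.1 and 11.2 FPKM in SYK-WT EGF cells (0.74 ± 0.07, adjusted p = 2.85e-04). MGST3 had 29.1 and 28.0 FPKM in SYK-KO cells, against 18.8 and 24.5 FPKM in SYK-WT cells (0.39 ± 0.12, adjusted p = 0.0299), and 0.21 without SYK-WT replicate 1 (adjusted p = 0.0685). MGST1 had 13.1 to 16.8 FPKM over all libraries and passed in no comparison. The deposited interval of MGST2 also holds MAML3.

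The glucuronosyltransferase entry of family 1 merges 9 UGT1A genes that share their last exons, so it stands for the locus and for no single enzyme. It had 42.7 FPKM in both SYK-KO EGF libraries, against 69.4 and 68.5 FPKM in SYK-KO cells, and 30.3 and 38.8 FPKM in SYK-WT EGF cells, against 71.6 and 76.1 FPKM in SYK-WT cells. EGF-treated libraries lay far below untreated ones in both genotypes. EGF minus untreated was -0.68 ± 0.10 in SYK-KO cells (adjusted p = 0.00709) and -1.08 ± 0.10 in SYK-WT cells (adjusted p = 5.24e-04), and these responses differed by 0.40 ± 0.15 (adjusted p = 0.506). The difference of SYK-KO EGF minus SYK-WT EGF, 0.31, was 0.13 without SYK-WT EGF replicate 1 (adjusted p = 0.260) and 0.48 without replicate 2. UGT2B7, which glucuronidates morphine and steroids, had 13.9 and 12.5 FPKM in SYK-KO cells, against 8.97 and 9.42 FPKM in SYK-WT cells (0.48 ± 0.07, adjusted p = 0.00183).

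Among the sulfotransferases, SULT1C2 had 7.66 and 9.16 FPKM in SYK-KO cells, against 3.52 and 4.74 FPKM in SYK-WT cells (0.88 ± 0.13, adjusted p = 0.00171), and 7.68 and 7.43 FPKM in SYK-KO EGF cells, against 3.01 and 3.51 FPKM in SYK-WT EGF cells (1.01 ± 0.13, adjusted p = 9.22e-04). The catecholamine sulfotransferases SULT1A3 and SULT1A4 are near-identical copies that also share an entry with SLX1B, and the entry is listed at 2 places on chromosome 16 with nearly the same values, so they are uncertain. One listing had 72.0 and 69.5 FPKM in SYK-KO EGF cells, against 59.4 and 55.1 FPKM in SYK-KO cells, and passed in no comparison. SULT2B1, a cholesterol sulfotransferase, passed in none either.

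**Figure D4:**
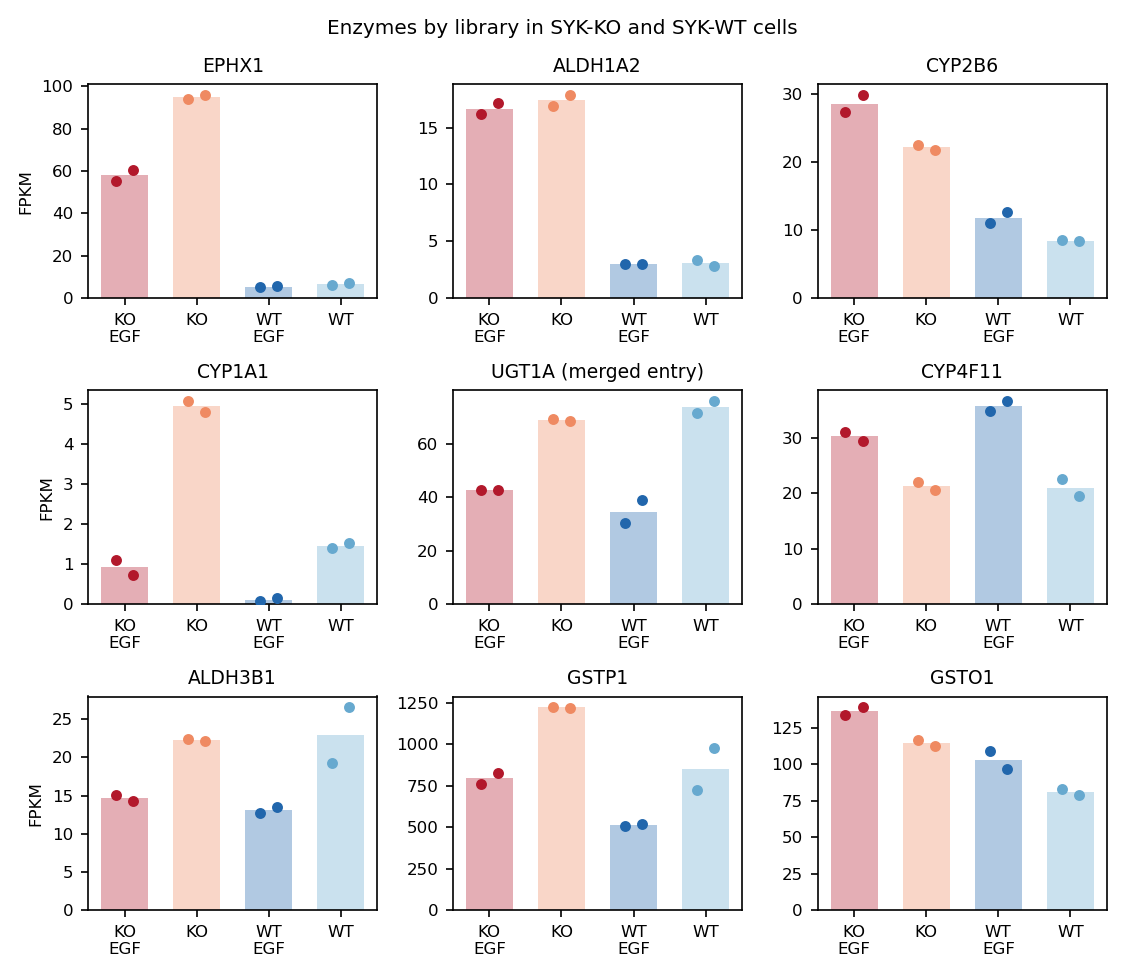
FPKM of 9 members in the libraries of SYK-KO EGF, SYK-KO, SYK-WT EGF and SYK-WT cells; points are single libraries and bars are means of 2. ALDH1A2 parts by genotype, and EPHX1 by genotype and, less far, by EGF. UGT1A, CYP4F11 and ALDH3B1 part mainly by EGF, and CYP1A1, CYP2B6, GSTP1 and GSTO1 by both. The EGF difference of GSTO1 in SYK-KO cells did not pass (limma adjusted p = 0.0699).

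Genes around these enzymes were described from 4 lists. Their counts stand against the shares of all tested entries. These were 20.3% higher and 20.2% lower in untreated SYK-KO cells, and 21.1% higher and 22.5% lower in SYK-KO EGF than in SYK-WT EGF cells. With EGF, 6.67% rose and 5.13% fell in SYK-KO cells, and 14.7% rose and 12.1% fell in SYK-WT cells. In untreated cells the share of lower regulators, and both shares in each of the other 3 lists, lay near the untreated background. No list was tested as a set, and nothing is read from any of these counts about the lists. Of 23 tested regulators, 2 were higher and 4 lower in untreated SYK-KO than in SYK-WT cells (median log2 difference -0.02, where it was -0.0081 for all tested entries). With EGF, 4 rose and 0 fell in SYK-KO cells, against 8 and 0 in SYK-WT cells. In SYK-KO EGF against SYK-WT EGF cells 5 regulators were higher and 5 lower (median -0.08, where it was -0.021 for all tested entries). MAFK, a small MAF partner of NRF2, rose with EGF by 0.68 in SYK-KO cells (adjusted p = 0.00446) and by 0.60 in SYK-WT cells (adjusted p = 0.00404). NRF2 itself, encoded by NFE2L2, had 33.8 and 32.1 FPKM in SYK-KO cells, against 39.8 and 34.9 FPKM in SYK-WT cells, and did not pass (adjusted p = 0.0979). CEBPA, a hepatocyte and adipocyte differentiation factor, had 6.96 and 7.61 FPKM in SYK-KO cells, against 1.76 and 3.82 FPKM in SYK-WT cells (1.18 ± 0.22, adjusted p = 0.00431; 0.78 without SYK-WT replicate 1). The pregnane X receptor NR1I2 stayed near 0 in every library.

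Of 17 cofactor and donor genes, 3 were higher and 3 lower in untreated SYK-KO cells (median 0.06). With EGF, 0 rose and 3 fell in SYK-KO cells, against 3 and 4 in SYK-WT cells. In SYK-KO EGF against SYK-WT EGF cells 3 of these genes were higher and 5 lower (median -0.05). SLC35B3, a Golgi carrier of the sulfate donor, fell with EGF in SYK-WT cells, by a log2 difference of -0.79 (adjusted p = 5.24e-04). It fell in SYK-KO cells too, by a log2 difference of -0.54 (adjusted p = 0.00484). The SYK-KO call ended when SYK-KO replicate 2 was left out, though the difference was then still -0.51. Untreated SYK-KO cells also had less SLC35B3 than untreated SYK-WT cells (log2 difference -0.51, adjusted p = 0.00183).

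Of 19 other oxidoreductases and conjugating enzymes, 3 were higher and 5 lower in untreated SYK-KO cells (median -0.06). With EGF, 3 rose and 3 fell in SYK-KO cells, against 5 and 4 in SYK-WT cells. In SYK-KO EGF against SYK-WT EGF cells 3 of these genes were higher and 8 lower (median -0.18). NNMT, the nicotinamide methyltransferase, had 137 and 129 FPKM in SYK-KO cells, against 49.3 and 44.2 FPKM in SYK-WT cells (1.49 ± 0.08, adjusted p = 2.45e-05), while XDH, xanthine dehydrogenase, was lower, with a log2 difference of -0.83 (adjusted p = 4.26e-04). NQO2, a quinone reductase, rose with EGF in SYK-WT cells by 1.01 (adjusted p = 1.93e-04).

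Of 17 genes of glutathione supply and export, 3 were higher and 4 lower in untreated SYK-KO cells (median 0.07). With EGF, 3 rose and 4 fell in SYK-KO cells, against 6 and 4 in SYK-WT cells. In SYK-KO EGF against SYK-WT EGF cells 2 of these genes were higher and 5 lower (median 0.0099). Glutathione reductase, GSR, had 38.2 and 40.8 FPKM in SYK-KO cells, against 61.3 and 65.3 FPKM in SYK-WT cells (-0.67 ± 0.07, adjusted p = 4.28e-04). SLC7A11, the cystine carrier, was higher by 1.05 (adjusted p = 1.87e-04) and GPX3, a secreted glutathione peroxidase, by 1.18 (adjusted p = 1.52e-04). The part of these regulators and suppliers in the levels of the enzymes was not tested.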

How the data were processed

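RNA of 8 libraries was measured by paired-end sequencing. FPKM per library, and p-values and q-values of 3 comparisons, were made by the authors and deposited, per the file headers; hg19, TopHat, Cufflinks and Cuffdiff 2.2.1.3 are listed, per the submitters' processing notes. For scaling between libraries, strand and parameters the sources used here give nothing. Groups were taken from sample titles, and symbols from RefSeq accessions. FPKM are not counts, so the test for counts was replaced by limma 3.58.1 (R 4.3.3) on log2(FPKM + 1). Entries reaching 1 FPKM in 2 or more libraries were fitted, with a mean-variance trend and 1 mean per group, sharing the spread (4 residual and 3.87 prior degrees of freedom). P-values are two-sided and adjusted by Benjamini-Hochberg over all 12112 entries per comparison, with a threshold of 0.05. Fold changes understate low genes. The fit was also run on simulated data with the same spread in every group. The SYK-WT pair differed more than the others here, so that run cannot check the effect of unequal spread. Depth was estimated from the step of low values and assumes scaling by the fragments of each library alone. It sets the precision of low values.

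The members and lists were chosen with earlier results of these data known. CYP families were read as a family number followed by a letter; literal starts would add 15 entries, of which 0 were tested. Named members were EPHX1, the highest member of each family, and per comparison up to 8 rises and 8 falls by smallest adjusted p with a mean of 5 FPKM or more in the higher group and no overlap between groups; for each list around them up to 4 genes per comparison, of which examples are printed. One gene of these lists is not reported here. Other named members and list genes were chosen after their values were seen: AKR1E2, ARNT, NFE2L2, NR1I2, CYP1A1, CYP1A2, CYP1B1, CYP2S1, CYP27A1, CYP2R1, CYP4V2, CYP2J2, AKR7A2, MGST1, UGT2B7 and SULT2B1. Of the tested members, 9 share a deposited interval with another entry, and without known strand their reads cannot be told apart where transcripts overlap. Alternatives were another pseudocount, no filter, equalised library medians, only the 2 groups compared, a replicate block, library quality weights, no trend, and each library left out; leaving out members admitted by 1 genotype only was added after seeing the data. The deviations of same-numbered libraries had correlations of mixed sign, from -0.381 to 0.27, so the numbers were not taken as pairs. Promoters are those of RefSeq in GRCh38.p14. Tables and plots used pandas 2.3.3 and matplotlib 3.10.9.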

Additional observations from a re-analysis of the deposited data

How the results depend on the processing

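With 2 libraries per group, counts of members past the threshold depended on the libraries. For EGF in SYK-WT cells the count of 16 was 6 with only the 2 groups fitted and 8 with library quality weights, and 8 to 22 with a library left out. For EGF in SYK-KO cells the count of 14 was 23 with only the 2 groups, 27 with quality weights, and 2 to 24 with a library left out, lowest without SYK-KO replicate 1. For SYK-KO against SYK-WT the count of 28 untreated was 17 to 32 with a library left out and 35 without the filter, and that of 28 with EGF was 20 to 32 with a library left out and 40 without the filter. Leaving out CYP2C18 and CYP2U1, a choice made after seeing the data, gave 26 in either. Between the EGF responses of the genotypes 0 to 3 members passed. Under the replicate block these counts were 17, 15, 27, 31 and 0. The shares of all tested entries under these alternatives are not given here, so the shifts are not read as particular to these enzymes. The cause was not tested. Over named members and list genes, 1969 of the recomputed differences kept direction and side of the threshold, 293 lost it, 2 gained it and 0 changed sign. Nearly all of these differences had been selected because they passed. In several alternatives, such as no filter, no trend or a library of another group left out, the difference itself could not change. The lack of sign changes therefore says little. Equalised library medians left each of the 5 counts as it was.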

Other observations

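Some members below the limit for testing still parted by genotype at low levels. GSTM2, a mu-class glutathione transferase, had 0.936 and 1.18 FPKM in SYK-KO cells, against 0.0657 and 0.0358 FPKM in SYK-WT cells, and 0.816 and 0.963 FPKM in SYK-KO EGF cells, against 0 and 0.0718 FPKM in SYK-WT EGF cells. SULT1A1, the main phenol sulfotransferase, had 0.586 and 0.704 FPKM in SYK-KO cells, against 0.0634 and 0.0783 FPKM in SYK-WT cells. In a fit without the limit both passed in untreated cells (limma adjusted p = 8.63e-04 for GSTM2 and 5.64e-04 for SULT1A1). SULT4A1, a neuronal sulfotransferase, lay the other way, with 0 and 0.0149 FPKM in SYK-KO cells, against 0.239 and 0.326 FPKM in SYK-WT cells. CYP27B1, the vitamin D 1-alpha-hydroxylase, followed EGF, with 0.383 and 0.262 FPKM in SYK-KO EGF cells, against 0.0451 and 0.0295 FPKM in SYK-KO cells, and 0.609 and 0.549 FPKM in SYK-WT EGF cells, against 0.0592 and 0 FPKM in SYK-WT cells. These genes were picked after their values were seen, and their levels rest on few fragments. GSTM1 and GSTT1, which are often deleted in the human population, were listed at 0 in all 8 libraries.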
